A study of Mus musculus with 56 samples.

Results

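The genes described here are the TNF superfamily ligands (Tnfsf) and their receptors (Tnfrsf) in mouse bone marrow-derived macrophages (BMDMs), chosen as every gene name that starts with Tnfsf or Tnfrsf in 56 annotated ChIP-seq peak lists. There were 31 such genes, 11 ligands and 20 receptors, among 20352 gene names in the lists. They carried 4019 of 1610519 peaks. The receptors comprise 4 with a cytoplasmic death domain, 3 decoys and 13 others.

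BMDMs from wild-type C57BL/6 mice 8 to 12 weeks old were differentiated with L929 cell supernatant, a source of macrophage colony-stimulating factor, and cross-linked with DSG and formaldehyde. In the first experiment, untreated cells (ctrl) were compared with cells given IL-4 (20 ng/ml) for 1 hr, with antibodies against RNA polymerase II phosphorylated at serine 5 (RNAPII-pS5, initiation) or serine 2 (RNAPII-pS2, elongation), acetylated histone H3 lysine 27 (H3K27Ac), the histone deacetylases HDAC1 to HDAC3, the coactivator p300 and the transcription factor PU.1. In the second, cells were left without IL-4 or pretreated with it (20 ng/ml) for 24 hr, and then left without or given LPS (100 ng/ml) for 1 hr, with antibodies against RNAPII-pS5, RNAPII-pS2 and the NF-κB subunit p65. The groups without IL-4 are called ctrl/ctrl and ctrl/LPS, and those pretreated with it (PT) are called IL-4 PT/ctrl and IL-4 PT/LPS. The LPS unit is that of the labels, since the study's methods write nM instead. Each antibody and condition had 2 samples, replicate 1 and replicate 2. The study calls them independent biological replicates, but the labels name no animal or culture, so p-values measure the spread between these samples, which may be partly technical.

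TNF superfamily ligands are mostly trimeric membrane proteins that engage receptors on the same or neighbouring cells. Receptors with a death domain can recruit adaptors that start apoptosis, whereas the others bind TRAF proteins and feed the canonical and alternative NF-κB pathways, and decoy receptors capture ligand without passing on a full signal. In macrophages, LPS acts through Toll-like receptor 4 to bring p65 into the nucleus, and several genes of this family are known NF-κB targets. IL-4 acts through STAT6, which binds paired TTC and GAA half-sites.

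The values are peak scores, not reads. In all lists but those of H3K27Ac the score ranked the peak by its significance (read here as -log10 of a p- or q-value). For H3K27Ac it was the normalized tag signal of a region of fixed width. A gene value is the sum of the scores of all peaks that carry the gene's name in a sample, and a site value is the score at 1 merged position. Distances from the start site are in bp, negative upstream. Tests used limma across all genes or sites with a peak in at least 2 samples, after each sample was centred on the genes or sites found in all samples, and differences are on the log2 scale of the centred values ± standard error. "Rose" and "fell" are written for a Benjamini-Hochberg adjusted p of at most 0.05. Where a sample had no peak the fit used the lowest score of the antibody's lists, so no log2 difference is given where both samples of a group had none, apart from 2 fitted interactions of p65 that are named as resting on that floor. An exact permutation test of 2 samples against 2 cannot go below 0.333, so the single values were not tested in that way.

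How deeply each library was sequenced is unknown, and its number of peaks stands in for depth. Lists held from 8440 peaks (HDAC3 ctrl replicate 2) to 71027 (PU.1 1 hr IL-4 replicate 2), and between 10 and 30 of the 31 genes had a peak in a given list. The library labelled p300 ctrl replicate 1 stood apart with 44787 peaks, and the results on p300 that rest on it are given with and without it. In RNAPII-pS2 of the 1 hr experiment the peak names inside the 4 lists carry the opposite treatment to the labels. The labels were kept, and the sign of any difference there would invert if the peak names were right. Across genes with peaks in all samples, the RNAPII-pS2 differences as labelled ran opposite to those of RNAPII-pS5 (Pearson r = -0.32 over 6854 genes), H3K27Ac (-0.34 over 6386) and p300 (-0.29 over 6355), whereas RNAPII-pS5 and H3K27Ac differences went together (0.47 over 10513). Genes are not independent replicates, and all differences come from 4 libraries per antibody. The study itself reports that RNAPII-pS2 correlated positively with RNAPII-pS5, H3K27Ac and nascent RNA, from reads over gene bodies. Which treatment the 4 RNAPII-pS2 lists hold was not tested. The labels also give HDAC3 and H3K27Ac the same antibody catalogue number. The study's methods text does so too, whereas its list of reagents gives HDAC3 a different number. Macrophage markers checked the cell type. Of 10 listed, 8 had a RNAPII-pS5 peak outside intergenic sequence in both ctrl samples (none at Adgre1, whose older name Emr1 did have one, or Spi1), against 2 of 6 T cell markers (Cd3d and Lck) and 2 of 4 B cell markers (Cd79b and Ms4a1). Cd3e, Cd3g, Cd4, Cd8a, Cd79a and Pax5 had none in either sample. In H3K27Ac 5 of 10 macrophage markers had such a region in both ctrl samples (none at Adgre1, Cd68, Csf1r, Lyz2 or Spi1), with 2 of 6 T cell and 2 of 4 B cell markers. Whether the lists carry Spi1 under another name, as they do Adgre1, was not checked. Its absence therefore does not show a lack of signal at that gene.

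The 6 p65 sites of the family with the highest mean score under ctrl/LPS among the sites that rose with LPS are printed first. They are followed by 3 sites chosen after their values were seen, since they rose with IL-4 pretreatment under LPS. Each is a window of equal length at the centre of the site, on the plus strand of mm10 (RefSeq GRCm38). Capitals mark matches to 4 motifs searched on both strands: GGANTTTCC and GGGNNTTCC (κB), GAGGAAGT (PU.1), and the half-sites TTC and GAA set 3 or 4 bases apart (STAT). In the Tnfrsf8 window a κB and a STAT match overlap in 1 run of capitals, and overlapping matches were each counted.
Tnfrsf1b at -7758, chr4:145254543-145254743: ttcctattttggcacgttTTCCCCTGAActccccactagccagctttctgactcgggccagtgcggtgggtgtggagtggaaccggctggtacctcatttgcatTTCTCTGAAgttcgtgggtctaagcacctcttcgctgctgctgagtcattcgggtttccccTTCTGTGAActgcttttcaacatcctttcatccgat
Tnfsf18 at 33702, chr1:161528258-161528458: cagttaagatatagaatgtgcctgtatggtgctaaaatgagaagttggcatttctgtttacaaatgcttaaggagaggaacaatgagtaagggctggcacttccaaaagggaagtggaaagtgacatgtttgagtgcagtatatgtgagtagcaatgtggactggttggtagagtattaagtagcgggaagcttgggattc
Tnfrsf8 at 31603, chr4:145283439-145283639: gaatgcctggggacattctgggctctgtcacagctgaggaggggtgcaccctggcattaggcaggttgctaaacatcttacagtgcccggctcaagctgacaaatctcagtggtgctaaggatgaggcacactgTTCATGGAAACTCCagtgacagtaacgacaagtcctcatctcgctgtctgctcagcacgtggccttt
Tnfrsf17 at -27775, chr16:11285944-11286144: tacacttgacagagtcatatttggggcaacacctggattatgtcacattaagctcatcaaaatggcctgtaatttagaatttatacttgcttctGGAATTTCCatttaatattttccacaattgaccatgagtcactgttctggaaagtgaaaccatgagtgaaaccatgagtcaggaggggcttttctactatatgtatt
Tnfrsf1b at -20969, chr4:145267730-145267930: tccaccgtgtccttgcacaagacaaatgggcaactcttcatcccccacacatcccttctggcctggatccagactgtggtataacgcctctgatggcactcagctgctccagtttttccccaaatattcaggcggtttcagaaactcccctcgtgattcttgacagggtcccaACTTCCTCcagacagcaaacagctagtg
Tnfrsf14 at -14828, chr4:154942789-154942989: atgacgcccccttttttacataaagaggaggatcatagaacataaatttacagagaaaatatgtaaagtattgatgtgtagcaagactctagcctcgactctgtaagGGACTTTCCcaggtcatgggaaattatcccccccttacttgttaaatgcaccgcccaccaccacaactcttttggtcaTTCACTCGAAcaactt
Tnfsf8 at 37971, chr4:63823212-63823412: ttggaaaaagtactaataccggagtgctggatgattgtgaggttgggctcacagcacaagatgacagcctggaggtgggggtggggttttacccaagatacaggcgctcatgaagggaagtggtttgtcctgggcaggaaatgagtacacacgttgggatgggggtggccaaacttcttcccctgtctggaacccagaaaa
Tnfsf9 at -775, chr17:57104540-57104740: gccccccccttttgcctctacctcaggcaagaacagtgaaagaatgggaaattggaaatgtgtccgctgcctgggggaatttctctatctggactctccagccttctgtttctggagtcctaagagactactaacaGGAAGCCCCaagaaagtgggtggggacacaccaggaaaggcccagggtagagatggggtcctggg
Tnfrsf1b at -14695, chr4:145261485-145261685: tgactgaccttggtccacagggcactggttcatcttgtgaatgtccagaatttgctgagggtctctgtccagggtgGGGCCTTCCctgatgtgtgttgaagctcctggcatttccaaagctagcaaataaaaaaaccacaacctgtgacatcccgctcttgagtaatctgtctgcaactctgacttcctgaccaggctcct

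These sites lay outside the promoters except that of Tnfsf9. The Tnfrsf1b sites at -7758, -20969 and -14695 and those of Tnfrsf14, Tnfrsf17, Tnfsf18 and Tnfsf8 were annotated as intergenic, and the Tnfrsf8 site as intronic. An intergenic peak takes the name of the nearest start site, which need not be the gene it lies in: the site at -20969 from Tnfrsf1b lies inside the span of Tnfrsf8. Over the 114 p65 sites of the family found in at least 2 samples, 24 windows (21.1%) held a κB match, against 16.9% of 37556 p65 windows of the same length. STAT half-sites stood in 14.0% against 16.2%, and the PU.1 motif in 3.51% against 8.19%. The Tnfsf18 and Tnfsf8 windows printed above held no match to these letters.

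Several members are neighbours on the chromosome. Tnfsf4 (chr1:161395438-161418206) lies beside Tnfsf18 (chr1:161494657-161505290), Tnfsf15 (chr4:63724600-63745059) beside Tnfsf8 (chr4:63831202-63861508), Tnfrsf1b (chr4:145212368-145246870) beside Tnfrsf8 (chr4:145267132-145315164), and Tnfsf9 (chr17:57105287-57107758) near Tnfsf14 (chr17:57189474-57194181). Tnfrsf26, Tnfrsf22 and Tnfrsf23 form a cluster on chromosome 7, and Tnfsf13 and Tnfsf12 are adjacent on chromosome 11. At the start of Tnfsf12 a PU.1 site and a p65 site carried the name BC096441 in some samples and Tnfsf12 in others. Peaks under the other name are not in the Tnfsf12 gene value. In p65 IL-4 PT/LPS replicate 2 that site scored 11.97 and the gene value was 6.61. The family's peaks were intergenic in 48.9% of cases, against 39.0% of all peaks, and intronic in 33.0% against 40.9%. Promoter peaks made up 12.8% against 13.1%.

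In untreated cells the same genes recurred at the top of most antibodies. By mean gene value of the ctrl samples of the 1 hr experiment, the order for RNAPII-pS5 was Tnfrsf1b (185), Tnfrsf21 (108), Tnfsf8 (102), Tnfrsf13b (90.9) and Tnfsf12 (79.4). For RNAPII-pS2 it was Tnfrsf1b (50.9), Tnfrsf1a (33.7), Tnfrsf11a (25.0), Tnfrsf13b (21.0) and Tnfsf8 (20.5) in the libraries labelled ctrl. In those labelled 1hIL4 it was Tnfrsf11a (55.3), Tnfrsf1b (45.6), Tnfrsf1a (41.0), Tnfsf8 (40.2) and Tnfrsf14 (26.3), which would be the untreated order if the peak names were right. Tnfrsf1b encodes TNF receptor 2 and Tnfrsf1a the death-domain TNF receptor 1, while Tnfrsf11a encodes RANK, the receptor that drives osteoclast differentiation of this lineage. The Tnfrsf1b RNAPII-pS5 values of the 2 ctrl samples, 216 and 155, did not overlap those of Tnfrsf21 (138 and 78.6), whereas the values of Tnfrsf21, Tnfsf8 and Tnfrsf13b overlapped one another. Sums of scores grow with the number of peaks and with gene length, so the order describes signal collected per gene name and not a level per length.

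For H3K27Ac the first were Tnfrsf1b (1300.2 normalized tags), Tnfrsf14 (1010.7), Tnfrsf1a (588), Tnfrsf21 (555) and Tnfsf18 (524). Tnfrsf14 encodes HVEM, the receptor of the ligand LIGHT, and Tnfsf18 encodes GITR ligand. Tnfsf18 led in PU.1 (528), followed by Tnfrsf11a (364), Tnfsf8 (242), Tnfrsf1b (209) and Tnfrsf21 (167). It also led in p300 (827), followed by Tnfrsf1b (778), Tnfsf8 (466), Tnfrsf11a (443) and Tnfsf15 (318), and in ctrl replicate 2 alone, without the library that stood apart, the values were 1207, 1067, 688, 644 and 506. Tnfsf18 and Tnfrsf1b took the first 2 places in HDAC1 (83.5 and 79.4), HDAC2 (102 and 86.6) and HDAC3 (116 and 54.4) as well. After them came Tnfrsf11a (65.7), Tnfrsf21 (44.8) and Tnfsf8 (35.5) in HDAC1, Tnfrsf11a (58.1), Tnfsf15 (49.9) and Tnfsf8 (43.7) in HDAC2, and Tnfrsf11a (31.7), Tnfsf14 (31.5) and Tnfsf15 (19.5) in HDAC3. The HDAC3 place of Tnfrsf11a rests on replicate 1 (54.9 against 8.51 in replicate 2, where it lay below Tnfsf14 at 29.1 and Tnfsf15 at 14.5).

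In the ctrl/ctrl samples of the second experiment Tnfsf18 (86.5), Tnfrsf1b (65.2), Tnfsf8 (34.7), Tnfrsf11a (24.6) and Tnfrsf14 (24.1) led in RNAPII-pS5, and Tnfsf18 (209), Tnfrsf1b (97.6), Tnfsf8 (53.9), Tnfrsf11a (50.9) and Tnfrsf14 (40.7) in RNAPII-pS2. For p65 the first were Tnfrsf1b (82.2), Tnfsf4 (53.0), Tnfsf18 (51.1), Tnfrsf17 (37.6) and Tnfrsf14 (32.2). At the other end, no ctrl/ctrl sample had a RNAPII peak of either form named for Tnfsf11 (RANK ligand), Tnfrsf9 (4-1BB), Tnfrsf11b (osteoprotegerin), Tnfrsf13c, Tnfrsf19, Tnfrsf10b or Tnfrsf22. Absence of a peak sets no bound on the signal, since the lists hold called peaks alone. The heat map of gene values by sample shows these levels beside those of the treated groups.

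**Figure D1:**
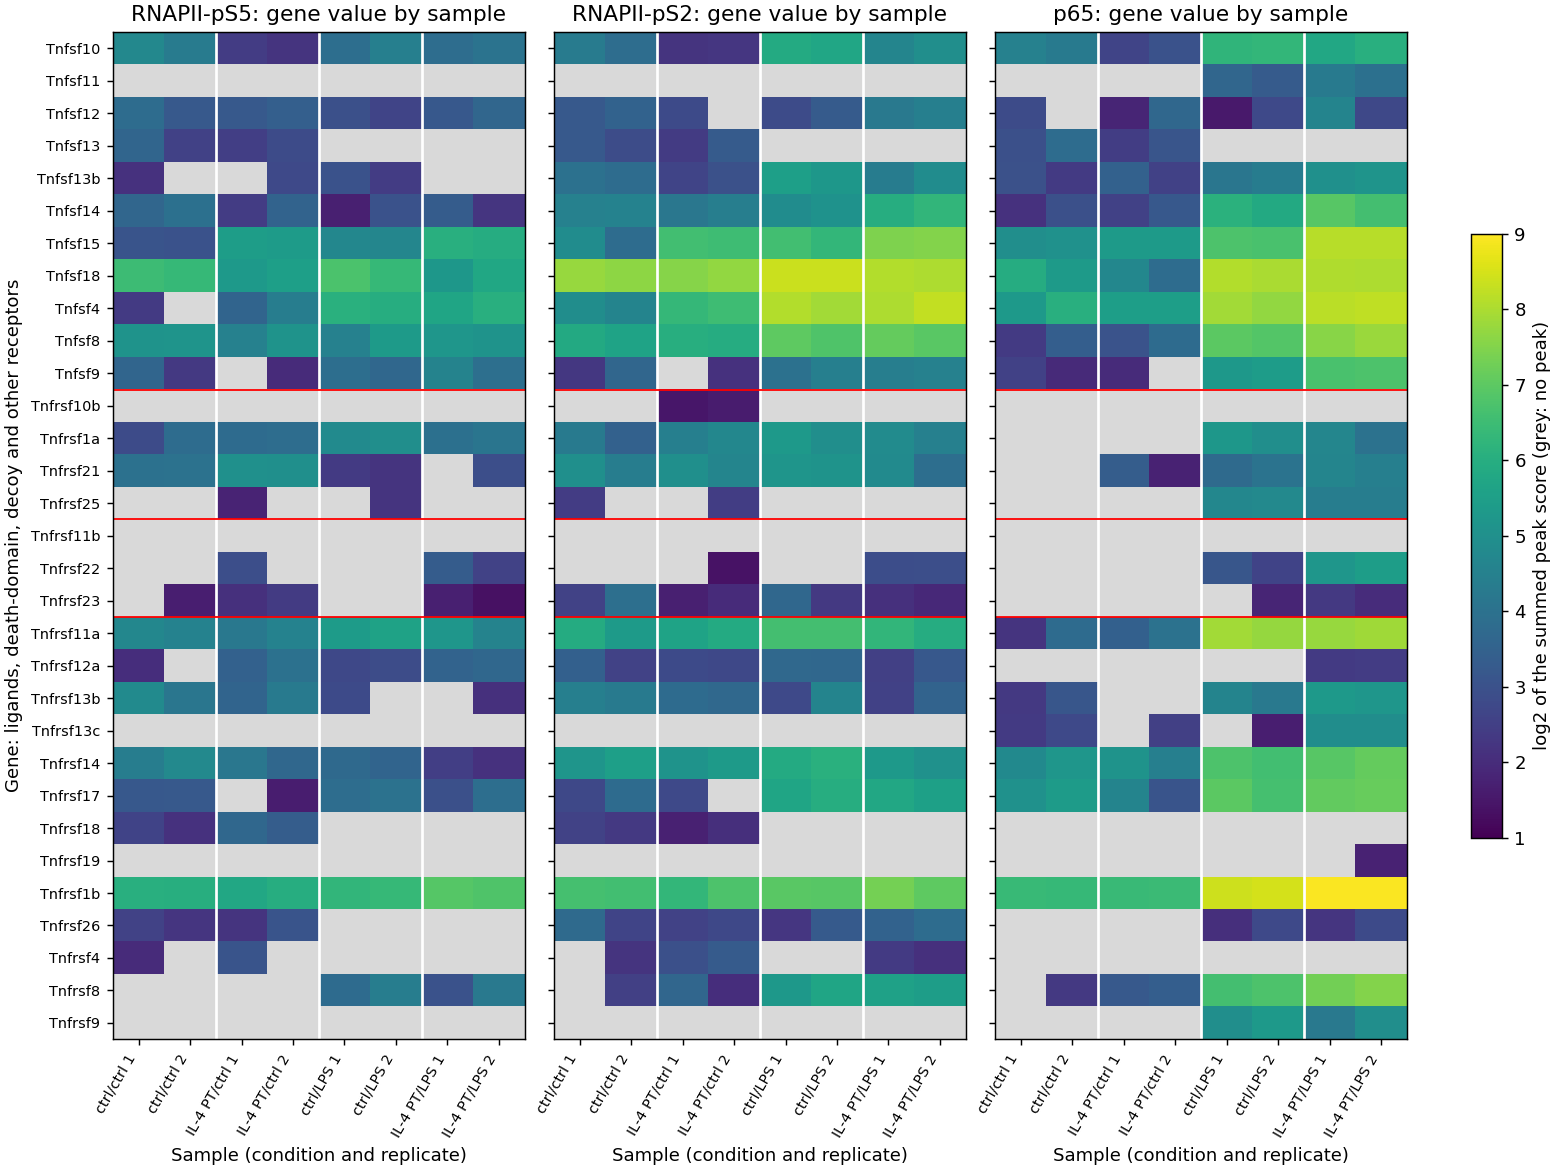
Gene value (log2 of the summed peak score) of the 31 TNF superfamily genes in each of the 8 RNAPII-pS5, 8 RNAPII-pS2 and 8 p65 samples of the IL-4 pretreatment and LPS experiment; grey cells had no peak, white lines part the 4 conditions and red lines part ligands, death-domain, decoy and other receptors. Tnfsf18 and Tnfrsf1b stood high throughout.

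The first comparison asked what 1 hr of IL-4 did to chromatin at these genes. H3K27Ac changed at 9 of the 23 genes tested, 3 upward and 6 downward, against a background of 14.8% of all genes upward and 18.1% downward. The family's median log2 difference was -0.15, against -0.01 over all genes. Of the 9 ligands tested, 1 rose and 2 fell. The calls rest on all 4 samples: without 1hIL4 replicate 1, 1hIL4 replicate 2, ctrl replicate 1 or ctrl replicate 2 they numbered 2, 1, 1 and 0.

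Among the ligands, Tnfsf9 (4-1BB ligand, a costimulator of T cells) had 171 and 151 normalized tags in the ctrl samples and 101 and 106 after IL-4. It fell by 0.63 ± 0.08 (adjusted p = 0.0168), and the groups did not overlap. Of the 23 members 8 upward and 10 downward had no overlap, as had 72.0% of all genes. Tnfsf18 had 545 and 502 in ctrl against 348 and 286 after IL-4, and fell by 0.72 ± 0.12 (adjusted p = 0.0249). Tnfsf13 (APRIL, a survival factor of B and plasma cells) had 467 and 437 in ctrl against 539 and 543 after IL-4. It rose by 0.27 ± 0.06 (adjusted p = 0.043), and without centring or without intergenic regions it missed the threshold.

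Among the receptors, Tnfrsf14 fell from 1039 and 982 to 762 and 754 (-0.41 ± 0.05, adjusted p = 0.0163). The death-domain receptor Tnfrsf21 (DR6) fell from 555 in both samples to 425 and 451 (-0.34 ± 0.06, adjusted p = 0.0293), and the decoy Tnfrsf23 from 109 and 125 to 81.8 and 81.9 (-0.50 ± 0.09, adjusted p = 0.0306). In each of these the 2 groups stood apart, as they did at 72.0% of all genes. Tnfrsf23 and Tnfsf18 were no longer called with a floor 4 times as high. Tnfrsf17 (BCMA, a receptor of APRIL and BAFF) had small regions of 27.6 and 23.7 in ctrl and none after IL-4 (adjusted p = 0.00482), and it kept its call in both omissions that could be fitted but lost it with a floor 4 times as high. It passed the filter through the ctrl samples alone, so that the omission of a ctrl sample could not be run. Upward, Tnfrsf18 (GITR) went from 151 and 152 to 187 and 192 (0.33 ± 0.05, adjusted p = 0.0224), and Tnfrsf13b (TACI) from 324 and 333 to 424 and 408 (0.35 ± 0.06, adjusted p = 0.0235). The marker lists moved too: of the B cell markers both tested (Cd79b and Ms4a1) fell, with the list's sum at 971 to 999 in ctrl and 699 to 700.3 after IL-4, while Cd79a and Pax5 had no region outside intergenic sequence in ctrl. The T cell sum went from 358 to 363 down to 278 to 288, and the macrophage sum from 4063 to 4218 up to 5040 to 5054. Of the 6 macrophage markers tested, however, 1 rose (Csf1r) and 3 fell (Itgam, Mertk and Cd14), with a median log2 difference of -0.21. Of the 3 T cell markers tested, 1 fell (Cd4). The part of the marker lists in the results was not tested.

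Seen by site, 7 of the family's 60 H3K27Ac regions rose and 15 fell, against 18.5% and 21.9% of all regions. The regions of a gene did not all move alike. The 3 regions of Tnfsf18 that were called fell: in its intron at 6325 (300 and 264 against 187 and 162), and intergenic at 17642 (64.5 and 58.4 against 22.8 and 28.5) and at 33614 (92.1 and 90.9 against 38.7 and 35.4). The last had the largest difference of the family's regions present in all 4 samples (-1.25 ± 0.08, adjusted p = 0.00289) and kept its call when each sample was left out.

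Tnfsf8 (CD30 ligand) had 4 regions that fell, at -81920, 14047, 37644 and 45817. At 45817 the signal went from 168 in both ctrl samples to 104 and 119. The gene sum of Tnfsf8 (426 and 446 against 342 and 380) was not called. Tnfsf14 (LIGHT) had both directions within its neighbourhood: -3814 rose (116 and 106 against 142 and 162), 11107 rose, and 21848 fell.

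At 45580 downstream of the Tnfsf15 start no region was called in ctrl, and one of 19.9 and 24.3 tags stood there after IL-4 (adjusted p = 0.00636). Tnfsf15 encodes TL1A, the ligand of the death receptor DR3. This site and the one of Tnfrsf17 at -25332 kept their call in both omissions that could be fitted. Of the 22 site calls 3 survived every omission that could be fitted and 10 survived none.

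**Figure D2:**
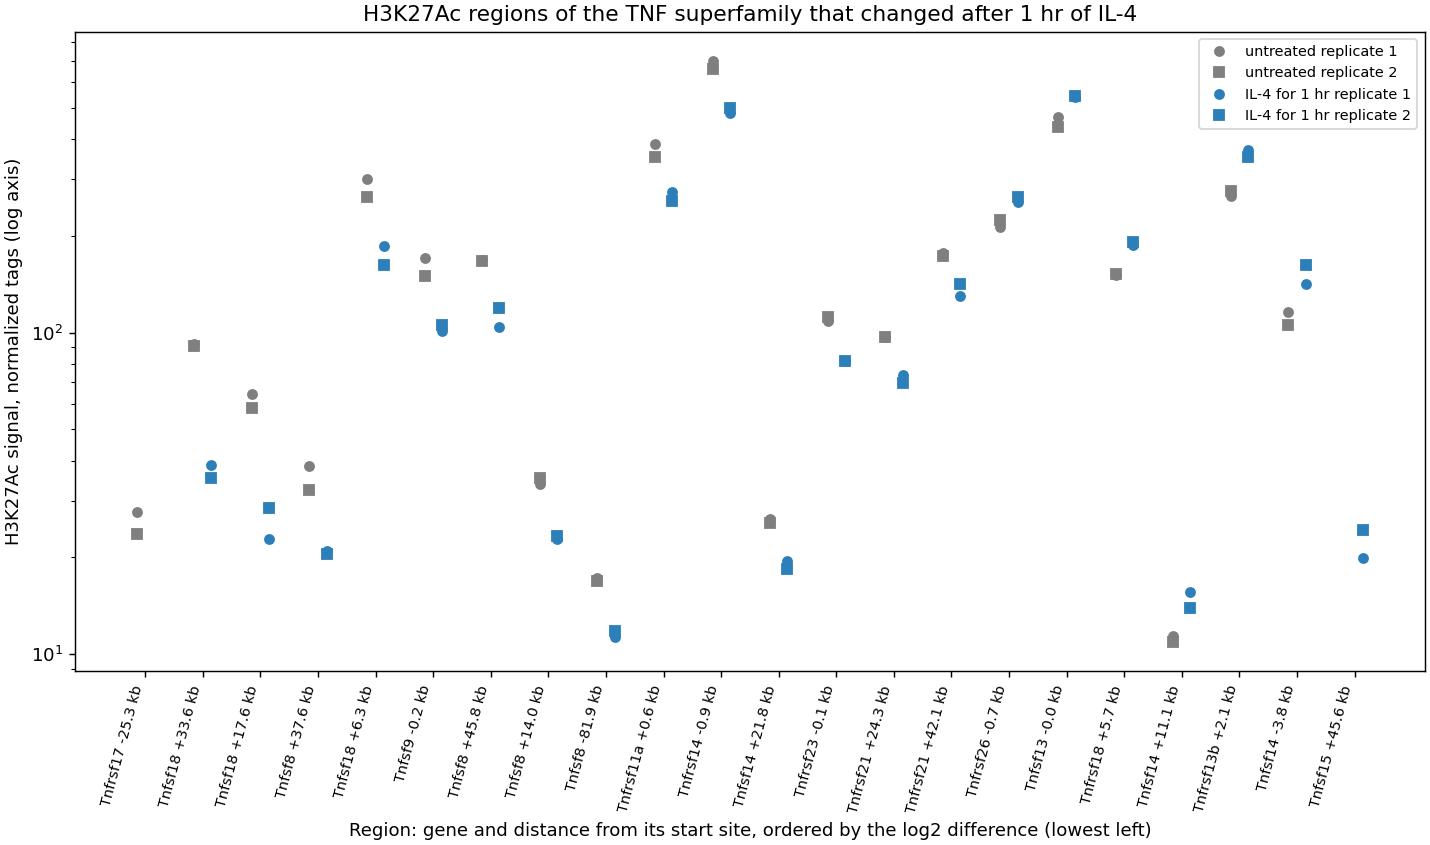
H3K27Ac signal (normalized tags, log axis) in each of the 2 untreated and 2 IL-4-treated (1 hr) samples at the 22 TNF superfamily regions with an adjusted p of at most 0.05, ordered by their log2 difference; a missing symbol means that no region was called. The 15 regions on the left fell, led by Tnfrsf17 and 2 regions of Tnfsf18, and the 7 on the right rose.

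Polymerase and the factors were compared at the same time point. None of the 24 genes tested for RNAPII-pS5 changed by limma, against 1.66% of all genes, and 2 had an unadjusted p of at most 0.05 (14.9% of all genes). The 3 with the smallest p were Tnfrsf26 (43.3 and 26.6 in ctrl, 16.6 and 20.3 after IL-4, adjusted p = 0.225), Tnfsf8 (127 and 76.5 against 73.3 and 54.5, adjusted p = 0.321) and Tnfrsf14 (87.5 and 67.0 against 45.2 and 62.6, adjusted p = 0.496). For RNAPII-pS2 none of 18 was called, as for all genes (0.0%), and 3 had an unadjusted p of at most 0.05 (16.6% of all). These were Tnfsf12 (TWEAK; no peak in the libraries labelled ctrl, 5.67 and 15.5 in those labelled 1hIL4, adjusted p = 0.117), Tnfrsf25 (DR3; adjusted p = 0.21) and Tnfrsf11a (16.8 and 33.1 against 39.3 and 71.2, adjusted p = 0.227).

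PU.1, the lineage factor of macrophages, gave no call among 28 genes or 135 sites (0.0% of all genes and 0.0% of all sites), with 1 gene and 12 sites at an unadjusted p of at most 0.05 by limma (10.4% of all genes and 12.6% of all sites). Tnfsf15 had the smallest p (110 and 67.8 in ctrl, 198 and 168 after IL-4, adjusted p = 0.436). Tnfsf9 (57.5 and 40.4 against 48.8 and 35.6, adjusted p = 0.614) and Tnfrsf12a (adjusted p = 0.642) followed. The histone deacetylases also gave none: 0 of 24 genes for HDAC1, 0 of 22 for HDAC2 and 0 of 16 for HDAC3, with 0.0% of all genes in each and 1, 2 and 3 members at an unadjusted p of at most 0.05 (9.03%, 9.19% and 15.8% of all genes). The smallest p were those of Tnfsf12 for HDAC1 (24.9 and 17.4 against 6.36 and 5.22, adjusted p = 0.305), ahead of Tnfrsf14 and Tnfsf13b. For HDAC2 Tnfrsf17 came first (3.55 and 3.17 against 13.9 and 7.7, adjusted p = 0.265), ahead of Tnfsf12 and Tnfsf13. For HDAC3 Tnfsf13 (adjusted p = 0.0904), Tnfrsf26 and Tnfsf10 had no peak in ctrl and a peak in both IL-4 samples.

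The coactivator p300 gave no call among 30 genes (3.55% of all), with 7 at an unadjusted p of at most 0.05, which 26.3% of all genes had. The nearest were Tnfsf13 (10.8 and 30.5 in ctrl, 84.4 and 109 after IL-4, adjusted p = 0.0588), Tnfsf11 (2.39 and 13.7 against 42.7 and 60.5, adjusted p = 0.0818) and Tnfrsf23 (24.8 and 58.0 against 25.6 and 33.8, adjusted p = 0.113). Without ctrl replicate 2 there were 5 calls, and without any of the other 3 samples none.

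At the level of sites, 22 of 157 p300 sites rose and 2 fell, against 11.4% and 1.58% of all sites. Of the 22, 13 had peaks in the 2 IL-4 samples alone and so passed the filter through the group where they were high. The count rests on the libraries used: it was 5 without ctrl replicate 1, which stood apart, 54 without ctrl replicate 2, and 0 without either IL-4 sample or without centring. The 5 that kept their call without either ctrl sample are all of this kind, so that omissions of an IL-4 sample could not be fitted for them. They were the sites of Tnfrsf1a at 3376 (37.8 and 52.9 after IL-4), Tnfrsf22 at -11390 (47.3 and 63.6), Tnfrsf8 at -8433 (21.7 and 30.9), Tnfrsf21 at 13881 (19.9 and 24.8) and Tnfrsf1b at -17956 (16.7 and 18.6). Sites present in all 4 samples included Tnfsf15 at 45186 (27.5 and 95.7 against 275 and 268) and Tnfsf4 at -26103 (15.6 and 34.2 against 147 and 158), both of which kept their call in 1 of the 4 omissions, that of ctrl replicate 2. Tnfsf4 encodes OX40 ligand.

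The second comparison asked what 1 hr of LPS did in cells without IL-4. RNAPII-pS5 rose at 6 and fell at 3 of the 25 genes tested, against 8.6% and 18.5% of all genes. RNAPII-pS2 rose at 6 and fell at 2 of 26, against 12.0% and 14.6%. Over all genes the median moved by -0.41 for RNAPII-pS5 and -0.19 for RNAPII-pS2 on the centred scale (-0.67 and 0.00 without centring), and the family's medians were 0.15 and 0.32. Without centring, the upward share of all calls went from 31.7% to 21.4% for RNAPII-pS5 and from 45.0% to 55.2% for RNAPII-pS2.

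Tnfsf4 had the largest change with peaks in both groups. Its RNAPII-pS2 values were 30.4 and 24.5 in ctrl/ctrl and 270 and 239 in ctrl/LPS (2.99 ± 0.22, adjusted p = 0.000747). For RNAPII-pS5 it had 5.16 and no peak in ctrl/ctrl, against 66.9 and 63.2 (adjusted p = 0.00312). Both calls held when each sample was left out and without intergenic peaks, although the RNAPII-pS5 value rests in part on the floor.

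Tnfsf15 rose in RNAPII-pS5 (8.47 and 8.02 against 25.9 and 25.6, 1.97 ± 0.23, adjusted p = 0.00285) and in RNAPII-pS2 (29.9 and 14.1 against 94.6 and 79.0, 1.85 ± 0.36, adjusted p = 0.0158). Its signal was intergenic in the main: with peaks outside annotated genes left out, the differences turned to -1.53 and -0.54. The RNAPII-pS2 call was also lost without either ctrl/LPS sample.

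Another 3 ligands rose in RNAPII-pS2. Tnfsf10 (TRAIL, a death ligand) went from 20.0 and 14.4 to 59.9 and 53.8 (1.52 ± 0.24, adjusted p = 0.00817), a call lost with intergenic peaks left out, whereas its RNAPII-pS5 values of 26.4 and 20.1 against 14.99 and 21.9 overlapped. Tnfsf13b (BAFF) went from 15.7 and 14.1 to 45.6 and 37.5 (1.25 ± 0.26, adjusted p = 0.0198), and Tnfsf8 from 57.7 and 50.1 to 130 and 111 (0.94 ± 0.21, adjusted p = 0.0238). The last 2 lost their call without either sample of either group. In the opposite direction Tnfsf13 had 12.2 and 5.86 (RNAPII-pS5) and 9.44 and 7.29 (RNAPII-pS2) in ctrl/ctrl and no peak under LPS (adjusted p = 0.00543 and 0.00272).

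Of the receptors, Tnfrsf8 (CD30) had no RNAPII-pS5 peak in ctrl/ctrl and 14.0 and 21.2 in ctrl/LPS (adjusted p = 0.00258). In RNAPII-pS2 it had none and 5.68 against 38.8 and 52.3 (adjusted p = 0.0249). Tnfrsf1a rose in RNAPII-pS5, from 7.13 and 14.2 to 28.6 and 31.0 (1.89 ± 0.40, adjusted p = 0.0184), as did Tnfrsf11a (26.1 and 23.2 against 41.7 and 49.2, 1.21 ± 0.31, adjusted p = 0.0366). Tnfrsf12a (Fn14, the receptor of TWEAK) had 4.09 and no peak against 6.7 and 7.32 (adjusted p = 0.0362). The calls of Tnfrsf11a and Tnfrsf12a were lost without centring, that of Tnfrsf12a also with a floor 4 times as high and that of Tnfrsf11a also without intergenic peaks. That of Tnfrsf1a was lost without either ctrl/LPS sample. Tnfrsf18 had peaks in both ctrl/ctrl samples (6.05 and 4.43 in RNAPII-pS5, 5.92 and 4.97 in RNAPII-pS2) and none under LPS (adjusted p = 0.00588 and 0.00161). RNAPII-pS5 at Tnfrsf26 likewise went from 5.92 and 4.72 to none (adjusted p = 0.0126), while its RNAPII-pS2 peaks were still called (4.78 and 9.52). With a floor 4 times as high the downward calls were lost. Of the RNAPII-pS5 calls 5 of 9, and of the RNAPII-pS2 calls 4 of 8, held in every omission of 1 sample. Of those that held, Tnfrsf18 and Tnfsf13 had peaks of both forms in the samples without LPS alone. Tnfrsf8 had its RNAPII-pS5 peaks in the LPS samples alone. In these cases, and for RNAPII-pS5 at Tnfrsf26, the gene passed the filter through the groups where it was high.

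p65 rose with LPS at 11 and fell at 1 of 26 genes, against 22.4% and 6.94% of all genes. The p65 lists held 9556 to 11026 peaks without LPS and 26305 to 38955 with it, and the median log2 difference of all genes was 0.51 centred and 1.59 uncentred, so the calls are relative to that shift. Without centring 22 of the 26 were called, against 51.6% of all genes on that scale, and the upward share of all calls went from 76.3% to 98.1%. Summed levels of the marker lists were higher with LPS as well, the B cell list from 24.5 to 31.7 up to 124 to 132, the T cell list from 26.4 to 41.4 up to 41.3 to 51.9 and the macrophage list from 247 to 281 up to 671 to 723. On the centred scale 1 rose and 1 fell of 8 macrophage markers tested, and likewise of 4 T cell markers. None of 2 B cell markers was called. The part of the marker lists was not tested.

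Of the 3 death-domain receptors tested, all rose, against 22.4% of all genes, while Tnfrsf10b had no p65 peak. None of the 3 had a p65 peak in ctrl/ctrl. Under LPS Tnfrsf1a had 37.6 and 31.2 (adjusted p = 0.000637), Tnfrsf25 had 26.1 and 27.2 (adjusted p = 0.000255) and Tnfrsf21 had 13.6 and 16.5 (adjusted p = 0.0122). The Tnfrsf21 call was lost without either ctrl/LPS sample, and none of its 4 p65 sites was called with LPS. The same pattern of no peak before and a peak in both samples after held for Tnfrsf9 (31.2 and 39.7, adjusted p = 0.000438), Tnfsf11 (12.4 and 9.77, adjusted p = 0.00189), Tnfrsf22 (8.73 and 6.09, adjusted p = 0.00496) and Tnfrsf26 (4.26 and 6.81, adjusted p = 0.0232). Tnfrsf9 and Tnfsf11 had no RNAPII peak of either form in any of the 8 samples of each antibody.

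In genes with p65 before LPS, Tnfrsf11a went from 4.56 and 13.8 to 235 and 215 (3.18 ± 0.54, adjusted p = 0.00975). Tnfsf8 went from 5.15 and 10.5 to 126 and 117 (2.40 ± 0.43, adjusted p = 0.0118). Tnfrsf8 had none and 5.03 in ctrl/ctrl against 97.6 and 108 (adjusted p = 0.0203). Tnfsf14 went from 4.4 and 7.69 to 69.4 and 57.9 (1.81 ± 0.40, adjusted p = 0.0239), and with intergenic peaks left out the difference turned to -1.71. Tnfsf13 again went the other way, from 7.82 and 14.1 at its promoter to no peak under LPS (adjusted p = 0.00129), as it had for both forms of RNAPII. Of the 12 calls 6 held in every omission of 1 sample, those of Tnfrsf25, Tnfrsf9, Tnfrsf1a, Tnfsf13, Tnfsf11 and Tnfrsf22. All of these but Tnfsf13, and also Tnfrsf26, had p65 peaks in the LPS samples alone. Tnfsf13 had them in the samples without LPS alone. All these genes, Tnfsf13 included, passed the filter through the groups where they were high. Without ctrl/LPS replicate 1 or 2 the count of calls was 7 or 6, and with a floor 4 times as high the calls of Tnfrsf21, Tnfrsf22, Tnfrsf26 and Tnfsf11 were lost. Without intergenic peaks those of Tnfrsf22 and Tnfrsf26 were lost.

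**Figure D3:**
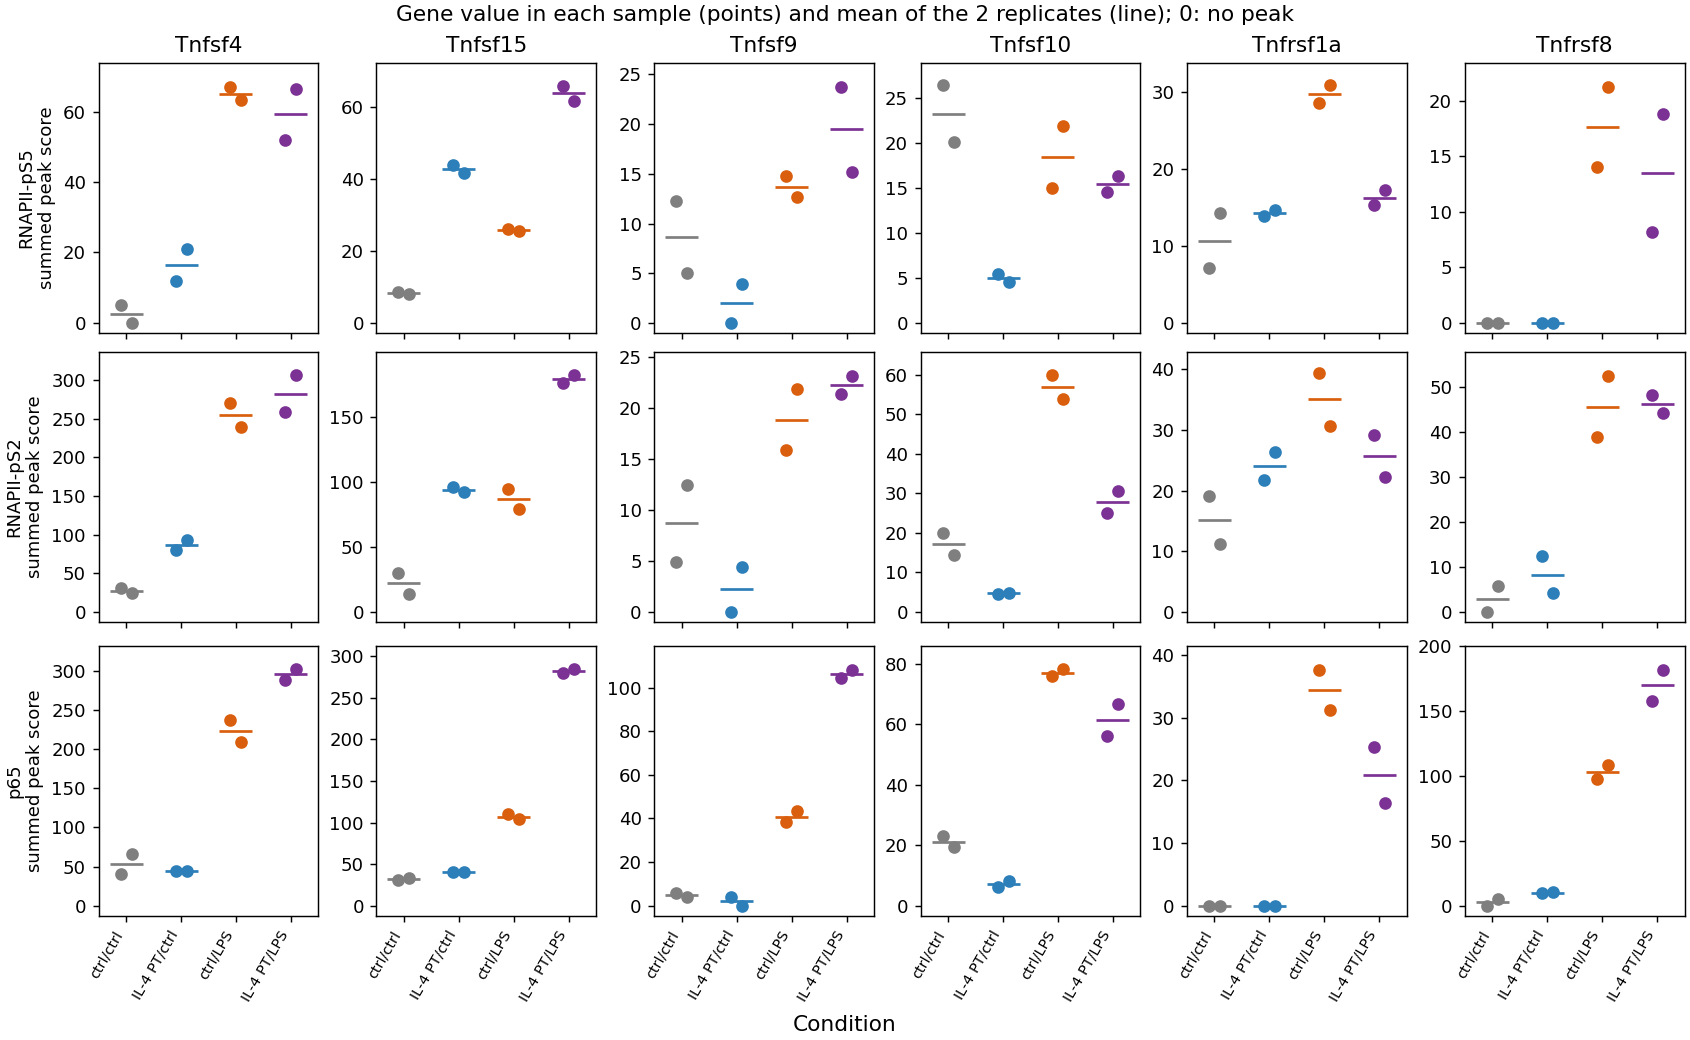
Summed peak score in each sample (points, 2 per condition) with their mean (line) for 4 ligands and 2 receptors in the RNAPII-pS5, RNAPII-pS2 and p65 lists of the 4 conditions; 0 means that no peak was called. Tnfsf4 RNAPII-pS2 went from 30.4 and 24.5 to 270 and 239 with LPS, Tnfsf10 was lowest in IL-4 PT/ctrl, and Tnfsf15 was highest in IL-4 PT/LPS in all 3 antibodies.

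By site, 47 of the 114 p65 sites rose with LPS and 4 fell, against 29.1% and 3.58% of all sites. The sites were spread over the family: Tnfsf4 held 6 that rose of 11, Tnfsf18 5 of 9, Tnfrsf1b 5 of 10, and Tnfrsf11a, Tnfsf8 and Tnfsf15 4 each. Of the 51 calls 43 held in every omission of 1 sample that could be fitted. Many of the sites that rose, such as Tnfrsf11a 83610 and Tnfsf4 -41003, had peaks in the LPS samples alone. Such sites passed the filter through the groups where they were high. Distance was a common feature: the median distance from the start site was 14820 bp, 13 sites lay within 1000 bp and 68 (59.6%) beyond 10000 bp.

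The highest scores under LPS were at Tnfrsf1b -7758 (8.3 and 13.6 in ctrl/ctrl, 96.6 and 97.3 in ctrl/LPS, 2.14 ± 0.30, adjusted p = 0.00392) and Tnfsf18 33702 (20.4 and 20.3 against 84.1 and 82.0, 0.98 ± 0.26, adjusted p = 0.0383). Next were Tnfrsf8 31603, with no peak before and 78.7 and 76.7 after, and Tnfrsf17 -27775 (14.6 and 13.04 against 82.9 and 72.3). Tnfrsf17 encodes BCMA. The Tnfsf18 call was lost in 4 of the 8 omissions.

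Promoter sites that appeared with LPS were those of Tnfrsf9 at -63 (23.7 and 27.3), Tnfsf4 at -359 (10.8 and 18.8), Tnfsf10 at -118 (9.49 and 11.9) and Tnfsf9 at -775 (9.65 and 15.8). Of the 4 sites called lower, the Tnfsf13 promoter at -436 lost its peak. The remaining 3 fell relative to the rise of the other sites. Tnfrsf1b at 12883 had 17.7 and 16.6 before and 21.2 and 18.1 after, so its score was higher, its difference turned to 0.19 without centring, and none of the 3 was called on that scale. The others, Tnfrsf1b -23476 (8.24 and 7.96 against 6.38 and 6.69) and Tnfrsf14 -1507 (5.54 and 6.43 against 4.32 and 4.81), were slightly lower in score too.

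IL-4 alone for 24 hr was compared with ctrl/ctrl. RNAPII-pS5 rose at 2 and fell at 2 of 25 genes (4.75% and 3.29% of all). RNAPII-pS2 rose at 3 and fell at 1 of 26 (8.28% and 6.96%), and p65 rose at 1 and fell at 2 of 26 (5.04% and 3.4%). Tnfsf10 was lower in all 3 antibodies and Tnfsf15 higher in both forms of RNAPII.

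Tnfsf10 RNAPII-pS5 went from 26.4 and 20.1 to 5.41 and 4.57 (-2.29 ± 0.29, adjusted p = 0.00965). Its RNAPII-pS2 went from 20.0 and 14.4 to 4.64 and 4.84 (-1.77 ± 0.24, adjusted p = 0.00752), a call that held in every omission of 1 sample. Its p65 went from 23.0 and 19.4 to 6.24 and 8.02 (-1.43 ± 0.24, adjusted p = 0.0221). The RNAPII-pS2 and p65 calls were lost with intergenic peaks left out.

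Tnfsf15 went from 8.47 and 8.02 to 43.8 and 41.6 in RNAPII-pS5 (2.30 ± 0.23, adjusted p = 0.00553) and from 29.9 and 14.1 to 96.1 and 91.8 in RNAPII-pS2 (2.26 ± 0.36, adjusted p = 0.0125). With intergenic peaks left out the first difference turned to -1.41 and the second was no longer called. Tnfsf4 RNAPII-pS2 rose from 30.4 and 24.5 to 79.5 and 92.5 (1.72 ± 0.22, adjusted p = 0.00571), a call that held in every omission of 1 sample.

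The other calls compare a peak with no peak in at least 1 sample and so rest in part on the floor. Tnfrsf10b (the TRAIL receptor) had no RNAPII-pS2 peak in ctrl/ctrl and 2.82 and 3.03 after IL-4 (adjusted p = 0.0103). Tnfrsf12a RNAPII-pS5 had 4.09 and none against 11.2 and 15.9 (adjusted p = 0.0377), and Tnfrsf17 had 9.15 and 9.46 against none and 3.12 (adjusted p = 0.0432). For p65, Tnfrsf13b had 5.05 and 8.76 in ctrl/ctrl and no peak after IL-4 (adjusted p = 0.00334), and Tnfrsf21 had no peak in ctrl/ctrl against 10.3 and 3.38 (adjusted p = 0.0171). With a floor 4 times as high the calls of Tnfrsf10b, Tnfrsf17, Tnfrsf13b and Tnfrsf21 were lost. Without ctrl/ctrl replicate 2, or without IL-4 PT/ctrl replicate 2, 1 RNAPII-pS5 call was left of 4. For p65 1 call was left of 3 without ctrl/ctrl replicate 1 or either IL-4 PT/LPS sample, and 5 were made without IL-4 PT/ctrl replicate 1.

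The last comparison asked how IL-4 pretreatment altered the cells given LPS. RNAPII-pS5 rose at 1 and fell at 2 of 25 genes (7.72% and 3.86% of all), RNAPII-pS2 rose at 2 and fell at 0 of 26 (5.06% and 2.85%), and p65 rose at 2 and fell at 1 of 26 (6.94% and 1.72%). The 8 calls were fragile: each was lost in at least 2 of the 8 omissions of 1 sample. Without centring the upward share of all calls went from 66.7% to 77.6% for RNAPII-pS5 and from 80.1% to 93.0% for p65, whose median over all genes was 0.13 centred and 0.65 uncentred.

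Tnfsf15 rose in RNAPII-pS5 (25.9 and 25.6 in ctrl/LPS, 65.8 and 61.6 in IL-4 PT/LPS, 1.02 ± 0.23, adjusted p = 0.0447) and in p65 (110 and 104 against 280 and 285, 0.90 ± 0.18, adjusted p = 0.0419). Its RNAPII-pS2 values of 94.6 and 79.0 against 176 and 182 also stood apart, as the groups did at 50.9% of all genes, but were not called. With intergenic peaks left out the p65 difference turned to -0.16 and the RNAPII-pS5 call was lost.

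Tnfsf18 and Tnfrsf14 fell in RNAPII-pS5, the first from 106 and 82.7 to 37.8 and 54.5 (-1.33 ± 0.30, adjusted p = 0.0436) and the second from 13.4 and 12.0 to 5.59 and 4.44 (-1.63 ± 0.34, adjusted p = 0.032), and both calls were lost with intergenic peaks left out. Tnfsf14 RNAPII-pS2 went from 30.0 and 33.6 to 63.0 and 77.4 (1.09 ± 0.23, adjusted p = 0.0436), a difference that turned to -1.23 with intergenic peaks left out. The decoy receptor Tnfrsf22 had no RNAPII-pS2 peak in ctrl/LPS and 7.42 and 7.55 in IL-4 PT/LPS (adjusted p = 0.0181), a call lost with a floor 4 times as high. Its p65 rose from 8.73 and 6.09 to 37.0 and 43.8 (1.96 ± 0.24, adjusted p = 0.0109). Tnfrsf25 p65 went from 26.1 and 27.2 to 21.0 and 20.8 (-0.85 ± 0.18, adjusted p = 0.0456), a call lost without centring and without intergenic peaks.

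Whether the response to LPS itself differed after pretreatment was tested as the interaction of both treatments. For RNAPII-pS5 none of 25 genes was called by limma (6.87% of all), with 6 at an unadjusted p of at most 0.05 (22.8% of all). The smallest p were those of Tnfsf10 (adjusted p = 0.0643), Tnfsf15 (adjusted p = 0.0818) and Tnfsf4 (adjusted p = 0.108), of which Tnfsf4 was called without intergenic peaks and Tnfsf15 with a floor 4 times as high. For RNAPII-pS2 1 of 26 was called, downward (3.79% of all genes upward and 3.01% downward). Tnfsf4 went with LPS from 30.4 and 24.5 to 270 and 239 without IL-4 and from 79.5 and 92.5 to 258 and 306 after it, and the 2 changes differed by -1.62 ± 0.31 (adjusted p = 0.0369). This call was lost without centring and in all 8 omissions.

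For p65 2 of 26 were called upward and 0 downward (5.32% and 3.23%). They were Tnfrsf13b (5.05 and 8.76, then 24.4 and 18.8 with LPS; no peak after IL-4 alone, then 40.6 and 36.7; adjusted p = 0.0119) and Tnfrsf22 (no peak without LPS in either arm, 8.73 and 6.09 with LPS, 37.0 and 43.8 after both; adjusted p = 0.0288). Both were lost without either IL-4 PT/LPS sample, Tnfrsf13b also with a floor 4 times as high and Tnfrsf22 also without intergenic peaks.

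**Figure D4:**
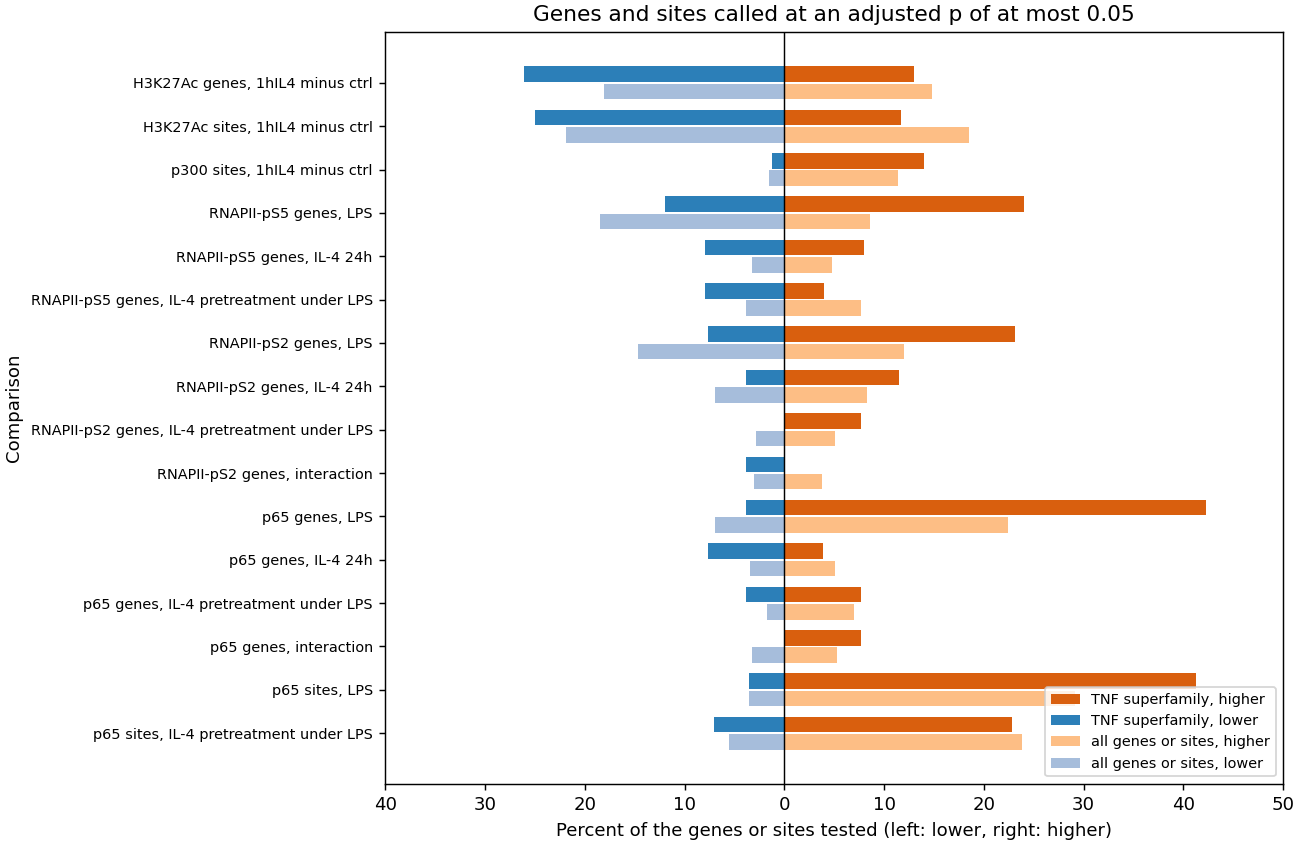
Percent of the tested TNF superfamily genes or sites (dark bars) and of all genes or sites tested (light bars) that were called higher (right) or lower (left) at an adjusted p of at most 0.05, for each comparison with at least 1 member called; each bar starts at 0. The largest upward share was that of p65 genes with LPS, 11 of 26 against 22.4% of all genes.

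The p65 sites gave more detail on pretreatment under LPS than the gene sums: 26 of 114 rose and 8 fell, against 23.8% and 5.58% of all sites. Without either IL-4 PT/LPS sample 7 calls were left, and of the 26 that rose 12 had peaks in the 2 IL-4 PT/LPS samples alone, so that they passed the filter through the group where they were high. Of the 34 calls 15 held in every omission that could be fitted, but 11 of them are such sites, for which the omission of an IL-4 PT/LPS sample could not be run. Ligands held 18 of the 26 sites that rose and 65 (57.0%) of the 114 sites. Tnfsf15 had 7 of its 15, 4 of them at positions with no peak under ctrl/LPS.

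At Tnfsf15 the site at 45175 went from 17.9 and 11.9 in ctrl/LPS to 51.2 and 40.8 (1.38 ± 0.26, adjusted p = 0.0127), and the one at -27401 from 5.54 and none to 27.9 and 34.6 (adjusted p = 0.00928). The promoter site of Tnfsf15 (27.01 and 24.0 against 33.1 and 15.6) overlapped between the groups. At Tnfsf4 the sites at -43351, -26060 and -16299 rose, the last from 3.0 and none to 25.4 and 30.1 (adjusted p = 0.000772).

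The Tnfsf9 promoter site at -775 had no peak in ctrl/ctrl, 9.65 and 15.8 in ctrl/LPS and 58.9 and 56.5 in IL-4 PT/LPS (1.95 ± 0.26, adjusted p = 0.00383). Another promoter site of Tnfsf9, at -96, had 5.89 and 3.87 in ctrl/ctrl. It went from 10.85 and 12.51 in ctrl/LPS to 5.95 and 6.59 in IL-4 PT/LPS and was not called. Tnfsf8 37971 went from 27.8 and 27.9 to 54.2 and 68.1 (0.86 ± 0.15, adjusted p = 0.0103), while 39621 of the same gene fell from 25.1 and 33.8 to 14.2 and 7.25 (-1.79 ± 0.37, adjusted p = 0.0185). Tnfrsf1b -14695 went from 24.2 and 25.1 to 53.4 and 61.9 (0.95 ± 0.14, adjusted p = 0.00505).

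The 8 sites that fell were 3 of Tnfsf10 and 1 each of Tnfsf8, Tnfrsf1a, Tnfrsf9, Tnfrsf25 and Tnfrsf11a. Of the 6 Tnfsf10 sites 3 fell and 1 rose, with the promoter at -118 going from 9.49 and 11.9 to 4.62 and 3.41 (-1.69 ± 0.23, adjusted p = 0.0041), a call that held in every omission of 1 sample. The intronic Tnfrsf1a site at 5169 went from 37.6 and 31.2 to 19.2 and 12.8 (-1.39 ± 0.26, adjusted p = 0.0123). The Tnfrsf9 promoter went from 23.7 and 27.3 to 8.76 and 18.5 (-1.27 ± 0.34, adjusted p = 0.044), and Tnfrsf25 at 4433 from 26.1 and 27.2 to 21.0 and 20.8 (-0.62 ± 0.13, adjusted p = 0.0208). Without centring the last 2, and the Tnfrsf11a site at -32173, were not called.

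**Figure D5:**
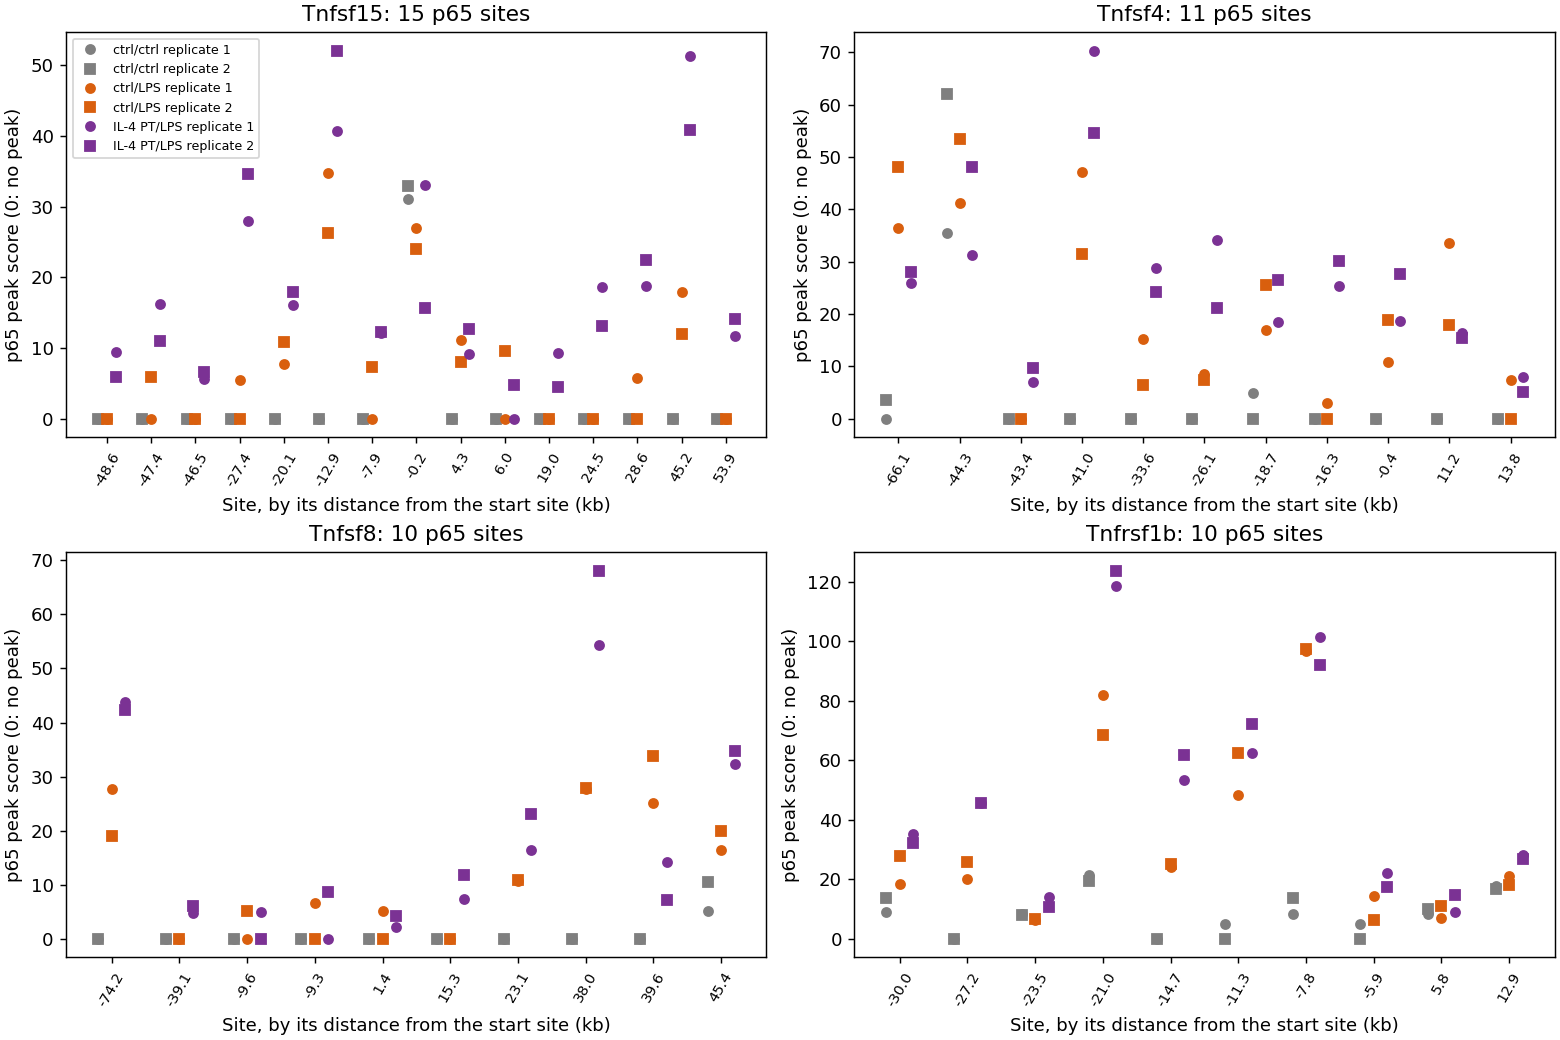
p65 peak score at each site of Tnfsf15, Tnfsf4, Tnfsf8 and Tnfrsf1b found in at least 2 samples, against its distance from the start site (kb), for both samples of ctrl/ctrl (grey), ctrl/LPS (orange) and IL-4 PT/LPS (purple); 0 means that no peak was called. At Tnfsf15 7 of 15 sites rose with pretreatment, and at Tnfsf8 the neighbouring sites at 37971 and 39621 bp moved in opposite directions.

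Positions were also compared between antibodies, as a description across experiments. Of the 114 p65 sites 59.6% overlapped a PU.1 site of the 1 hr experiment, against 62.8% of all p65 sites. For p300 the shares were 72.8% and 80.7%, and for H3K27Ac 38.6% and 48.9%. Of the p300 sites that rose after 1 hr of IL-4, 7 overlapped a p65 site, and 3 of those p65 sites rose with pretreatment under LPS and none fell. The 3 were Tnfsf15 45175, Tnfsf4 -26060 and Tnfrsf22 -11381. Over all p65 sites 23.8% rose and 5.58% fell in that comparison. The p300 sites of Tnfrsf8 at -8433, Tnfrsf22 at -11390 and Tnfrsf14 at -14742 had peaks in the IL-4 samples alone.

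Of the H3K27Ac regions that rose at 1 hr, 4 overlapped 4 p65 sites, of which Tnfsf15 45175 and Tnfsf14 11120 rose with pretreatment under LPS and none fell. Of the H3K27Ac regions that fell at 1 hr, 11 overlapped 12 p65 sites, 4 of which rose with pretreatment under LPS: Tnfsf9 -775, Tnfsf14 21510, Tnfsf8 37971 and Tnfrsf14 -1507. None of the 12 fell. The shares of all p65 sites are again 23.8% higher and 5.58% lower, and no test of these overlaps was made.

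Other genes of the pathway were counted from 2 lists. Of the 15 family members with other names, 6 to 14 were tested in a given comparison. With LPS 2 rose and 2 fell of 9 in RNAPII-pS5 (Fas and Tnf up, Cd40lg and Cd27 down) and in RNAPII-pS2 (Fas and Fasl up, the same 2 down), and 3 of 11 rose in p65 (Cd40lg, Cd70 and Tnf, adjusted p = 0.0088, 0.013 and 0.0253). H3K27Ac after 1 hr of IL-4 rose at 2 and fell at 2 of 8 (Cd40lg and Cd40 up, Cd27 and Tnf down). Over all genes 8.6% rose and 18.5% fell with LPS in RNAPII-pS5, 12.0% and 14.6% in RNAPII-pS2, 22.4% rose in p65, and 14.8% rose and 18.1% fell in H3K27Ac.

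Of the 17 genes of receptor-proximal signalling, which relay the signal from receptor tails to NF-κB or caspases, 4 of 16 rose in RNAPII-pS5 with LPS (Cflar, Birc3, Traf1 and Ripk1) and none fell. In RNAPII-pS2 4 of 15 rose and 1 fell, and in p65 2 of 14 rose (Traf5 and Birc2) and 1 fell (Traf2). With IL-4 pretreatment under LPS 1 of 16 rose in RNAPII-pS5, 1 rose and 1 fell of 15 in RNAPII-pS2, and 1 of 14 rose in p65, Traf5 being the gene that rose in all 3. With 24 hr of IL-4 alone 0 rose and 3 fell of 15 in RNAPII-pS2 (Traf2, Rnf31 and Birc3), against 8.28% and 6.96% of all genes. None of 16 was called in RNAPII-pS5 (4.75% rose and 3.29% fell of all), and 1 of 14 rose in p65 (Traf5, 5.04% of all). H3K27Ac after 1 hr of IL-4 rose at 3 and fell at 1 of 15. The shares of all genes with LPS and in H3K27Ac are those given for the first list (6.94% fell in p65), and with pretreatment under LPS 7.72% rose in RNAPII-pS5, 5.06% rose and 2.85% fell in RNAPII-pS2, and 6.94% rose in p65. The median p65 log2 difference with LPS was 0.03 over the signalling list and 0.61 over the TNF superfamily, against 0.51 over all genes.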

How the data were processed

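Chromatin immunoprecipitation was sequenced by the authors in 56 samples, and each deposited file is an annotated peak list of 1 sample. Per the submitters' processing notes and the study's methods, reads were aligned to mm10 with BWA 0.7.10, handled with SAMtools 0.1.19 and annotated with HOMER 4.2. Peaks were called with MACS2 2.0.10 at a stated q-value of 0.01, and H3K27Ac regions with HOMER in its histone mode. For the MACS2 lists the score deposited by the authors was read as -log10 of a p- or q-value, inferred from its range (lowest value 1.3). For H3K27Ac the deposited score is a signal, the normalized tags of a region. Both depend on depth and on the calling threshold, no reads were available, and replicate lists were deposited separately.

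Scores were summed per gene name, or the highest score was taken per site after peaks that overlapped by at least 1 bp were merged. The values were put on the log2 scale, the median of the genes or sites found in all samples was subtracted within each sample, and absent values then took the lowest score of the antibody's lists (1.3 to 1.76, and 9.1 for H3K27Ac). Setting this floor before the centring instead lets missing values shift between samples, so that order was kept as an alternative chosen after seeing the data. limma 3.58.1 in R 4.3.3 tested all genes or sites with a peak in at least 2 samples, with 1 fit over the 4 groups of the second experiment, and Benjamini-Hochberg adjustment over the whole table. Tables and figures were made with Python 3.11.15, pandas 2.3.3, NumPy 2.4.6 and matplotlib 3.10.9. The fit was tested on simulated data.

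The members, gene lists and tests were chosen with earlier results of these data known. Named genes are the members called in a comparison (at most 8 by p, and any beyond these were added after their values were seen), or the 3 with the smallest p where none was called, and the 5 highest in untreated cells of each antibody. Alternatives were another floor, filters, peaks without intergenic ones, the highest peak, the upper 50% of peaks, quantile normalization, sites merged only at 100 bp of overlap, no centring, a replicate block and the omission of each sample. Symbols and sequences are those of RefSeq (GRCm38). One gene of the B cell marker list is not reported here, and the list was counted and summed without it.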

Additional observations from a re-analysis of the deposited data

Results flagged for a closer look

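The change with LPS differed between cells with and without IL-4 pretreatment at 3 genes, by the interaction term of limma. At Tnfsf4, RNAPII-pS2 went from 30.4 and 24.5 to 270 and 239 without pretreatment and from 79.5 and 92.5 to 258 and 306 after it, an interaction of -1.62 (adjusted p = 0.0369), which was lost in all 8 omissions of 1 sample. At Tnfrsf13b, p65 went from 5.05 and 8.76 to 24.4 and 18.8 without pretreatment and from no peak to 40.6 and 36.7 after it. The fitted interaction of 3.6 (adjusted p = 0.0119) rests on the floor in the IL-4 PT/ctrl samples, and it was lost without either IL-4 PT/LPS sample and with a floor 4 times as high. At Tnfrsf22, p65 had no peak without LPS in either arm, 8.73 and 6.09 with LPS and 37.0 and 43.8 after both. The fitted interaction of 1.96 (adjusted p = 0.0288) rests on the floor in all 4 samples without LPS, so it repeats the difference with pretreatment under LPS, and it was kept in 2 of 8 omissions.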

How the results depend on the processing

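Counts of called members changed as follows. With the replicate number as a block, a term for pairing, they became 2 (H3K27Ac genes), 13 (H3K27Ac sites), 0 (p300 sites), 0 (RNAPII-pS5 with pretreatment under LPS), 1 (RNAPII-pS2 the same), 0 (RNAPII-pS2 interaction), 1 (p65 with pretreatment under LPS) and 1 (p65 interaction). Over 26 pairs of groups same-numbered samples correlated at -0.027 to 0.066, so across genes these scores showed no shared pattern by replicate number. A shift common to all genes of a list would not show in such a correlation. Whether same-numbered samples share an animal or culture is not given by the labels. With a floor 4 times as high they were 9 (H3K27Ac sites), 1 (p300 genes), 1 (RNAPII-pS5 interaction), 3 (RNAPII-pS2 interaction), and 27 and 22 (p65 sites with LPS and with pretreatment). With no filter they were 15 (p300 sites), 1 (RNAPII-pS5 pretreatment) and 1 (RNAPII-pS2 pretreatment). With a peak required in every sample they were 2 (p300 genes), 3 and 2 (RNAPII-pS5 with LPS and with 24 hr IL-4), 0 (RNAPII-pS2 interaction), 3, 1, 0 and 0 (p65 with LPS, 24 hr IL-4, pretreatment and interaction), and 9 and 0 (p65 sites with LPS and pretreatment), with fewer genes and sites tested. With the floor before the centring they were 1 (RNAPII-pS5 pretreatment) and 1 (p300 sites), and without centring 1 (p300 genes), 0 (p300 sites), 0 (RNAPII-pS2 interaction), 22 (p65 with LPS) and 4 (p65 interaction). With the highest peak they were 2 (p300 genes), 2 and 1 (RNAPII-pS5 with 24 hr IL-4 and pretreatment) and 1 (RNAPII-pS2 pretreatment). With the upper 50% of peaks they were 3 (p300 genes), 5, 2 and 1 (RNAPII-pS5 with LPS, 24 hr IL-4 and pretreatment), 2 (RNAPII-pS2 interaction), 1, 7 and 5 (p65 with 24 hr IL-4, pretreatment and interaction) and 30 (p65 sites with LPS). Without intergenic peaks they were 1 and 1 (RNAPII-pS5 pretreatment and interaction), 5 and 1 (RNAPII-pS2 with LPS and pretreatment), and 1 and 0 (p65 with 24 hr IL-4 and interaction). At an unadjusted p of at most 0.05 they were 2, 3, 1, 12, 7, 41, 1, 2 and 3 at 1 hr (RNAPII-pS5, RNAPII-pS2, PU.1 genes and sites, p300 genes and sites, HDAC1, HDAC2, HDAC3), 9, 7 and 6 (RNAPII-pS5 with 24 hr IL-4, pretreatment and interaction), 7, 7 and 7 (RNAPII-pS2) and 7, 8 and 8 (p65). The cause of these changes was not tested. Quantile normalization and merging at an overlap of 100 bp changed no count by over 1.5 times.

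Leaving out 1 sample gave 0 to 2 (H3K27Ac genes), 4 to 9 (H3K27Ac sites), 0 to 5 (p300 genes), 0 to 54 (p300 sites), 6 to 9, 1 to 3 and 0 to 2 (RNAPII-pS5 with LPS, 24 hr IL-4 and pretreatment), 4 to 9, 3 to 5, 0 to 2 and 0 to 1 (RNAPII-pS2 with LPS, 24 hr IL-4, pretreatment and interaction), 6 to 14, 1 to 5, 0 to 3 and 0 to 4 (p65 likewise), and 48 to 54 and 7 to 36 (p65 sites with LPS and pretreatment). A group left with 1 sample was assumed to vary like the others.

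Without intergenic peaks 6 differences turned: Tnfsf14 RNAPII-pS2 with pretreatment (-1.23) and p65 with LPS (-1.71), Tnfsf15 RNAPII-pS2 with LPS (-0.54), RNAPII-pS5 with 24 hr IL-4 (-1.41) and with LPS (-1.53), and p65 with pretreatment (-0.16). Of 781 values of single members, these 6 included, 654 kept their direction and side of the threshold, 112 lost and 9 gained a call, as did 373, 166 and 1 of 540 values with 1 sample left out. Without centring the median over all genes was -0.67 (RNAPII-pS5 with LPS), 0.30 and 0.29 (RNAPII-pS5 pretreatment and interaction), 0.83 (p300), -0.50 (HDAC1), 0.43 (HDAC3), 0.27 (PU.1), 0.70 (p65 interaction), and over sites 0.78 (p300), 1.14 and 0.66 (p65 with LPS and pretreatment). For the p65 interaction the calls over all genes went from 655 higher and 398 lower to 1446 and 211. Unknown depth limits what an absent peak can show.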
